A study of Mus musculus with 6 samples.

Results

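Interferon-stimulated genes were followed in bulk RNA-seq of colonic tissue from mice with colitis. The 42 genes were taken by name from the deposited table, in which each had exactly 1 row among 36977 genes. All of them passed the filter of a mean of at least 0.5 FPKM (fragments per kilobase of transcript, scaled to the mapped fragments of each library) over the 6 libraries, which left 14611 tested genes. Their means over the 6 libraries ran from 3.71 to 553 FPKM.

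The 6 libraries came from wild-type (WT) mice with colitis induced by DSS (dextran sodium sulfate), which damages the lining of the colon, and are numbered 1, 2 and 4 in each of 2 groups. The treatment labels give DSS alone for 3 libraries and DSS with deoxycholic acid (DCA), a secondary bile acid made by gut bacteria, for the other 3, here called DSS+DCA. The protocol text, the same for all samples, describes 2% DSS for 7 days and a DCA enema afterwards, so whether the DSS group received an enema, and of what, remains unstated. Strain, age and sex of the mice are likewise not given. The labels do not tie a library to a separate mouse, so every p-value rests on spread among libraries that may be technical in part. The labels name the cell type as intestinal epithelial cells and the source as colonic tissue. All 12 epithelial markers were detected in every library, and smooth muscle, nerve and immune markers were detected as well.

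Interferons are secreted when a cell senses foreign or misplaced nucleic acid. Type I and type III interferons signal through JAK kinases to a complex containing STAT2 and IRF9, which binds interferon-stimulated response elements (ISRE) and switches on a large set of antiviral genes. In the intestine the epithelium responds chiefly to type III interferon and immune and stromal cells to type I, and a basal level of these genes is maintained by the microbiota. The products sense viral RNA, block viral entry, translation or replication, or tag proteins with the ubiquitin-like modifier ISG15.

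The comparison asked how DCA altered colonic expression during DSS colitis. Most interferon-stimulated genes had lower FPKM in the DSS+DCA libraries. The fitted log2 change was below 0 for 39 of 42 members, for 38 after quantile normalization or a rescaling to protein-coding genes outside the mitochondrial genome (Irf1 turning to a higher value in both), and for 28 when levels were set against 12 epithelial markers. Without DSS+DCA replicate 4 it was below 0 for 38 and without DSS replicate 1 for 40. Over all tested genes 60.5% had a change below 0 in the fit that gave 39 members. The matching shares for the other settings were not computed. In mean FPKM 17 members were at least 2-fold lower, and the matching share of all tested genes was not computed. The median change of the members was -0.88 on the log2(FPKM + 1) scale, beside -0.09 for all tested genes. That median moved to -0.46 under the protein-coding rescaling (0.23 for all genes) and -0.12 relative to the epithelial markers (0.67 for all genes), which themselves had a median change of -0.82. DSS+DCA replicates 2 and 4 stood apart, with 47.6% and 46.7% of summed FPKM from mitochondrial transcripts against 29.4% to 31.4% in the other 4 libraries. Nuclear protein-coding genes made up 20.9% and 24.2% of their summed FPKM, against 44.8% to 46.0% in the other 4. The part of these shifts in the result was not tested. In 30 members all 3 DSS+DCA values lay below all 3 DSS values, and in 0 all lay above, where 17.8% and 5.8% of all tested genes did so. Of the 12 epithelial markers, 8 also lay wholly below. Relative to the epithelial markers 10 members lay wholly below, against 1.17% of tested genes. Only Mx1 and Isg20 passed the test, an adjusted p under 0.05 in limma with Benjamini-Hochberg adjustment over all tested genes, and both fell. Over all tested genes 0.561% passed, 0.431% with lower and 0.13% with higher values. At an adjusted p under 0.1 there were 7 members, all lower (Dhx58, Ifi27l2b, Isg15, Isg20, Mx1, Mx2 and Samd9l), against 1.29% of tested genes lower. At an unadjusted p under 0.05 there were 31 members, all lower, against 12.4% of tested genes. In bulk tissue fewer cells of a type and less RNA per cell cannot be told apart.

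**Figure D1:**
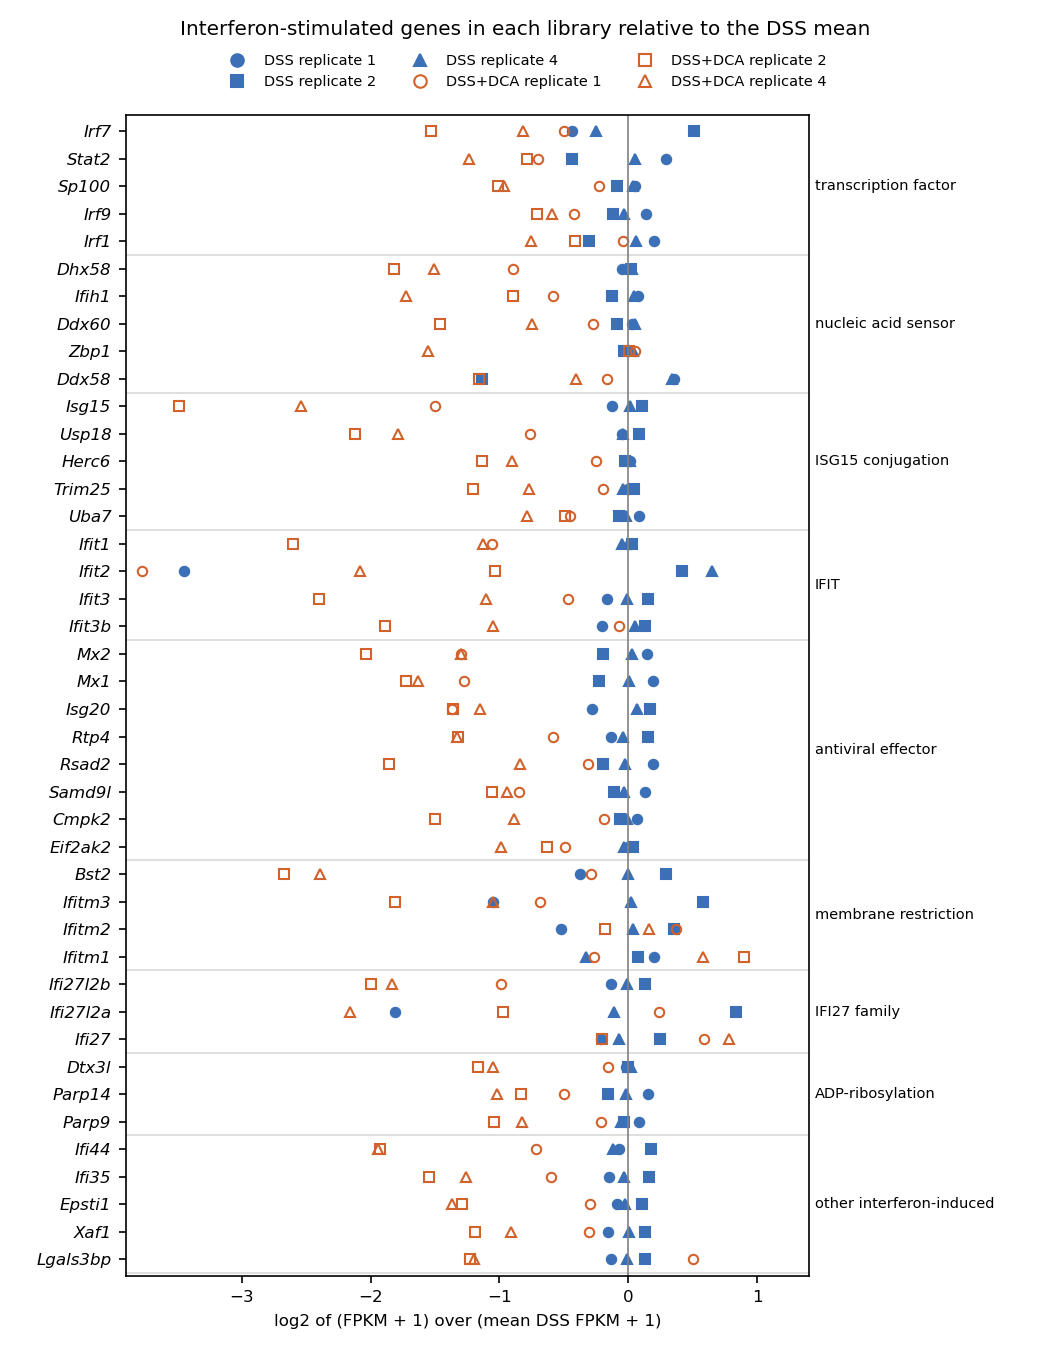
Each row is 1 interferon-stimulated gene, grouped by role, and each symbol 1 library, placed by the log2 of its FPKM + 1 over the DSS mean of FPKM + 1. In 30 of 42 rows the 3 open symbols (DSS+DCA) lie left of the 3 filled symbols (DSS), and in 38 rows DSS+DCA replicate 1 is the rightmost of the open symbols. Of all tested genes, 17.8% lay wholly lower in the same way.

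RefSeq promoter windows (build GRCm38.p6) were matched by symbol for 31 of the 42 members, and the 250 bases before each start were searched on both strands. Dhx58, Ifi27, Ifi27l2a, Ifi27l2b, Mx1, Mx2, Parp14, Parp9, Rtp4, Usp18 and Zbp1 had no entry. The core of the ISRE was spelled as GAAA, any 2 bases, GAAA, and overlapping matches were counted. It was found in 9 members, Bst2, Ddx60, Ifit1, Ifit3, Ifit3b, Ifitm2, Isg15, Rsad2 and Stat2, which is 29.0% of those matched, against 3.46% of the 27025 genes with a window. The stretches around the matches are shown because they carry this shared element, each read 5′ to 3′ on the strand of its gene with 30 bases on either side where the window allows. Capitals mark the ISRE core, which reads TTTC, any 2 bases, TTTC where it lies on the other strand.
Isg15, chr4:156200845-156200926, minus strand: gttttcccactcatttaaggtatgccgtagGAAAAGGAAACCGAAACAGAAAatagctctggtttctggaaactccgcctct
Ifit1, chr19:34640755-34640843, plus strand: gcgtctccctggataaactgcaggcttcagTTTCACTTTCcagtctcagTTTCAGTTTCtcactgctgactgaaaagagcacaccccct
Ifit3, chr19:34583343-34583446, plus strand: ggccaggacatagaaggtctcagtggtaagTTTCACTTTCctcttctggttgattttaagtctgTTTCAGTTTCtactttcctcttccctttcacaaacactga
Bst2, chr8:71537557-71537632, minus strand: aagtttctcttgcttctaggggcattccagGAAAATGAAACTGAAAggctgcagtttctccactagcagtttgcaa
Ddx60, chr8:61928004-61928086, plus strand: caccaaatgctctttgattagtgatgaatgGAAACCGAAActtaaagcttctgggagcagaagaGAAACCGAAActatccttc
Rsad2, chr12:26456533-26456602, minus strand: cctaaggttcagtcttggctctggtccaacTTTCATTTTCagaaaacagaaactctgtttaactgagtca
Stat2, chr10:128270248-128270315, plus strand: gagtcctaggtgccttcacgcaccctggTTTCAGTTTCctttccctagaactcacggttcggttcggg
Ifitm2, chr7:140955968-140956037, minus strand: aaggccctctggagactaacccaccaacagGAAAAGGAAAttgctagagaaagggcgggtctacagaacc
The Isg15 stretch holds 3 overlapping cores in a row. The stretch of Ifit3b was identical to that of Ifit3. Of the 9 members with a core, Ifitm2 was the only one whose fitted change was above 0, and its core, GAAAAGGAAA, is also among those of Isg15. The members with a core had a median log2 change of -0.995 (range -2.51 to 0.16), and the 22 matched members without one had -0.79 (range -1.52 to 0.42), a difference that was not tested. The core of the gamma-activated site (GAS), an element of the type II interferon response, spelled as TTC, any 3 bases, GAA, was found in 5 matched members, Bst2, Eif2ak2, Ifit2, Irf1 and Isg20, or 16.1%, against 8.13% of all genes with a window. A match is a description of these letters and not evidence of binding.

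Among the ISG15 conjugation genes, Isg15 had the highest mean level and the lowest fitted change of the 42 members, while the 5 genes of this role had a median log2 change of -0.76. Isg15, the ubiquitin-like modifier itself, measured 842, 987 and 925 FPKM in DSS replicates 1, 2 and 4 and 323, 81.1 and 157 in replicates 1, 2 and 4 of DSS+DCA, the order kept for all values below. The groups did not overlap, and the highest DSS+DCA value, in replicate 1, was less than the lowest DSS value. The means were 918 ± 72.6 and 187 ± 124 FPKM (SD, n = 3 in each group), 4.91-fold lower, and the fitted log2 difference was -2.51 ± 0.47 (SE, adjusted p = 0.0848, limma). Usp18, which removes ISG15 from proteins and dampens receptor signalling, measured 30.2, 33.2 and 30.3 FPKM in DSS and 18.0, 6.41 and 8.33 in DSS+DCA (adjusted p = 0.116). The activating enzyme Uba7 measured 26.0, 23.2 and 24.2 FPKM in DSS and 17.6, 17.1 and 13.7 in DSS+DCA. Herc6, the main ISG15 ligase in mouse, measured 4.90, 4.74 and 4.91 FPKM in DSS and 3.91, 1.66 and 2.13 in DSS+DCA. All 3 separated the groups. The highest Herc6 value was 1.04 times the lowest in DSS and 2.35 times it in DSS+DCA, and 12.5% of its 50-base stretches occur in other genes. Trim25, a ubiquitin ligase that activates the sensor RIG-I and can be coupled to ISG15, measured 42.6, 43.8 and 41.3 FPKM in DSS and 37.0, 17.9 and 24.6 in DSS+DCA. All 5 genes of this role separated the groups and none passed the test (adjusted p from 0.0848 to 0.264, limma). For comparison, 17.8% of all tested genes lay wholly lower with DCA.

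The antiviral effectors included both genes that passed the test. Mx1, a dynamin-like GTPase that traps viral ribonucleoproteins, measured 21.4, 15.8 and 18.7 FPKM in DSS and 7.13, 4.94 and 5.33 in DSS+DCA. It fell 3.21-fold, its group means being 18.7 ± 2.80 and 5.80 ± 1.17 FPKM (SD, n = 3 per group), or -1.53 ± 0.20 on the log2 scale (SE, adjusted p = 0.0347, limma). Isg20, an exonuclease that degrades RNA, measured 8.76, 12.3 and 11.4 FPKM in DSS and 3.60, 3.61 and 4.33 in DSS+DCA, and it fell 2.82-fold, or -1.28 ± 0.19 on the log2 scale (SE, adjusted p = 0.0453, limma). Gene identifiers matched to GENCODE M21 place Mx1 (build GRCm38) on chromosome 16 from 97447035 to 97462907 and Isg20 on chromosome 7 from 78913424 to 78920396. The build behind the FPKM is unstated. With single libraries left out, the log2 change ran from -1.67 to -1.43 for Mx1 and from -1.41 to -1.19 for Isg20, while the calls varied. Both genes passed without DSS+DCA replicate 1 (adjusted p = 0.0168 and 0.0249, limma). When any 1 of the 3 DSS libraries was left out, or DSS+DCA replicate 4, neither passed (adjusted p from 0.107 to 0.234, limma), and without DSS+DCA replicate 2 Mx1 passed at 0.0461 and Isg20 missed at 0.0558. Isg20 also missed after TMM-style scaling between libraries (adjusted p = 0.0557, limma), while Mx1 passed (adjusted p = 0.0242, limma). Under that scaling 4 members passed, Dhx58, Ifi27l2b, Mx1 and Rtp4, against 0.684% of tested genes lower, and under the protein-coding rescaling 3, Dhx58, Ifi27l2b and Mx1, against 0.308%.

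Mx2, a related GTPase encoded nearby, measured 11.4, 8.79 and 10.4 FPKM in DSS and 3.56, 1.74 and 3.55 in DSS+DCA (log2 change -1.54 ± 0.25 SE, adjusted p = 0.0555, limma). Its fitted change was close to that of Mx1, and the means differed 3.46-fold. Samd9l, a factor that restricts poxviruses, measured 46.6, 39.3 and 41.6 FPKM in DSS and 23.1, 19.9 and 21.7 in DSS+DCA (adjusted p = 0.0763, limma), and its spread was narrow in both groups. Rtp4, a chaperone of receptors, 11.6% of whose stretches occur in the overlapping gene Gm45338, measured 20.2, 24.9 and 21.6 FPKM in DSS and 14.5, 8.28 and 8.24 in DSS+DCA. Eif2ak2, which encodes the RNA-activated kinase PKR that halts translation, measured 18.2, 18.7 and 17.8 FPKM in DSS and 12.7, 11.4 and 8.72 in DSS+DCA. Both separated the groups and did not pass (adjusted p = 0.124 and 0.162, limma). Rsad2 encodes viperin, a radical enzyme that makes a chain-terminating nucleotide, and its neighbour Cmpk2 encodes a mitochondrial nucleotide kinase. Rsad2 measured 10.2, 7.5 and 8.58 FPKM in DSS and 6.85, 1.69 and 4.45 in DSS+DCA. Cmpk2 measured 14.7, 13.3 and 13.8 FPKM in DSS and 12.1, 4.28 and 7.07 in DSS+DCA. In both genes DSS+DCA replicate 1 came near the lowest DSS value and replicate 2 was the lowest. All 8 effectors separated the groups, where 17.8% of all tested genes lay wholly lower with DCA.

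**Figure D2:**
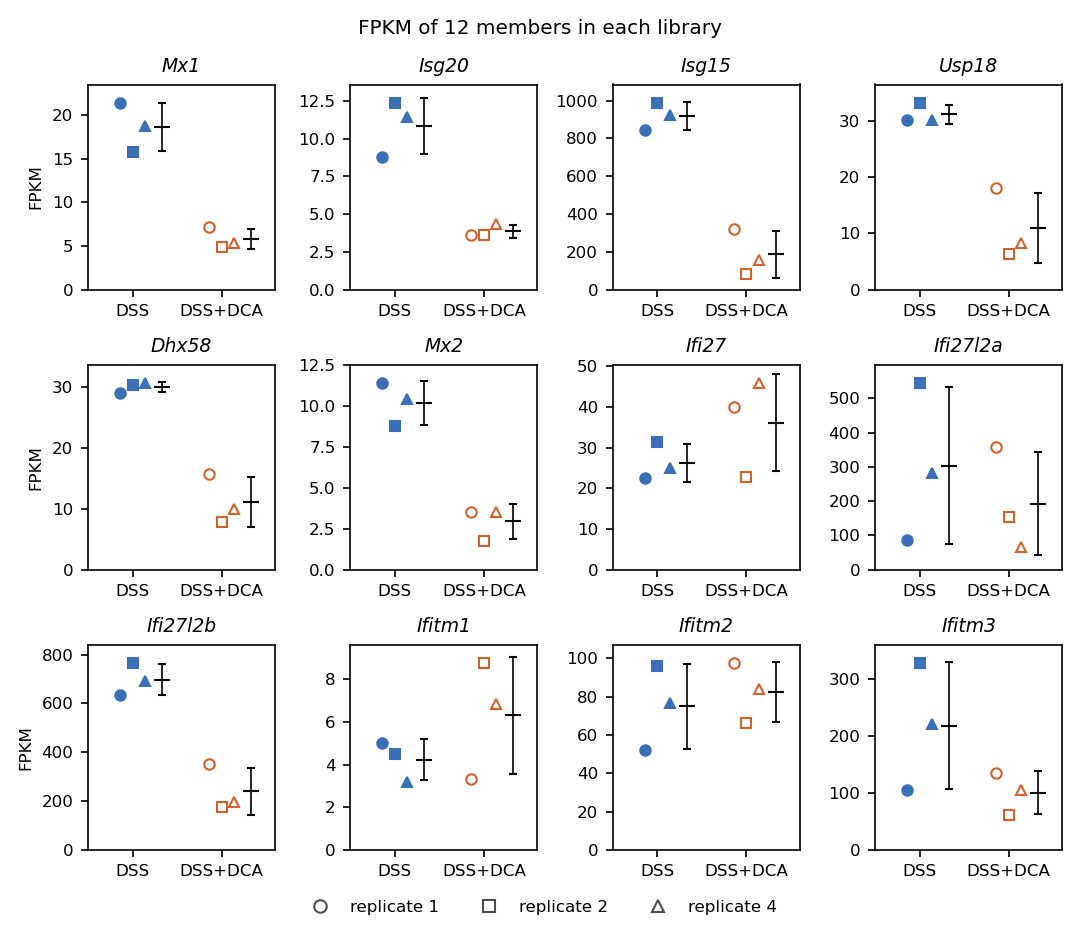
FPKM of 12 members in each library, with the group mean and SD (n = 3) beside the symbols. The groups are apart for Mx1, Isg20, Isg15, Usp18, Dhx58, Mx2 and Ifi27l2b, and overlap for Ifi27, Ifi27l2a and the 3 Ifitm genes.

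The IFIT proteins bind viral RNA that lacks host cap marks, and their genes lie in 1 cluster on chromosome 19. Ifit1 measured 103, 104 and 98.4 FPKM in DSS and 48.4, 15.9 and 45.8 in DSS+DCA (log2 change -1.60 ± 0.41 SE, adjusted p = 0.155, limma). Ifit3 measured 65.8, 81.9 and 73.4 FPKM in DSS and 53.1, 13.2 and 33.7 in DSS+DCA (adjusted p = 0.243, limma). Both separated the groups, with DSS+DCA replicate 2 lowest. Ifit3b measured 11.1, 14.3 and 13.5 FPKM in DSS and 12.3, 2.77 and 5.76 in DSS+DCA, and here DSS+DCA replicate 1 lay within the DSS range. Of the 50-base stretches in Ifit3 transcripts, 51.2% also occur in Ifit3b, so how reads were divided between this pair is uncertain. The Ifit2 groups overlapped. Ifit2 measured 3.36, 62.8 and 73.7 FPKM in DSS and 2.48, 22.3 and 10.2 in DSS+DCA, so that DSS replicate 1 and DSS+DCA replicate 1 were both low (log2 change -1.50 ± 1.18 SE, adjusted p = 0.547, limma). Ifit2 shared 0 of its 50-base stretches with another gene.

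Sensors of nucleic acid were led by Dhx58. Dhx58, which encodes LGP2, a helicase that tunes signalling by the other RNA sensors, measured 29.0, 30.4 and 30.6 FPKM in DSS and 15.7, 7.80 and 9.92 in DSS+DCA. The DSS values were almost equal, the mean was 2.69-fold lower with DCA, and the log2 change was -1.41 ± 0.26 (SE, adjusted p = 0.0778, limma). It did not pass, but it did after TMM-style scaling, quantile normalization and the protein-coding rescaling. Ifih1, which encodes the long-RNA sensor MDA5, measured 15.4, 13.3 and 15.1 FPKM in DSS and 9.41, 7.41 and 3.71 in DSS+DCA (adjusted p = 0.174, limma). Ddx60, a helicase linked to these sensors, measured 14.5, 13.2 and 14.7 FPKM in DSS and 11.5, 4.49 and 8.04 in DSS+DCA. Both separated the groups, with all DSS values close together. Ddx58, which encodes RIG-I, measured 10.04, 2.94 and 9.92 FPKM in DSS and 6.68, 2.87 and 5.53 in DSS+DCA (adjusted p = 0.664, limma). The low libraries were replicate 2 of either group, so its groups overlapped. Zbp1, a sensor of Z-form nucleic acid that can start necroptosis, measured 32.4, 31.6 and 33.3 FPKM in DSS and 33.6, 32.5 and 10.4 in DSS+DCA. Its level in DSS+DCA replicates 1 and 2 was close to that of DSS, and only replicate 4 was low (adjusted p = 0.581, limma).

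Among the transcription factors, 4 of 5 separated the groups, against 17.8% of all tested genes wholly lower with DCA, and none passed. Stat2, the STAT specific to type I and III interferon, measured 21.5, 12.5 and 18.0 FPKM in DSS and 10.3, 9.65 and 6.78 in DSS+DCA (adjusted p = 0.179, limma). Its DNA-binding partner Irf9 measured 11.2, 9.19 and 9.83 FPKM in DSS and 7.27, 5.79 and 6.36 in DSS+DCA (adjusted p = 0.186, limma). These partners in 1 complex were 1.95-fold and 1.56-fold lower in mean FPKM. Irf7, which amplifies interferon production, measured 103, 199 and 118 FPKM in DSS and 98.7, 47.8 and 79.0 in DSS+DCA, and DSS+DCA replicate 1 lay just under DSS replicate 1. Sp100, a component of nuclear bodies, measured 10.9, 9.80 and 10.8 FPKM in DSS and 8.80, 4.70 and 4.89 in DSS+DCA. Irf1, a factor induced strongly by type II interferon, measured 75.05, 52.7 and 68.4 FPKM in DSS and 63.4, 48.8 and 38.3 in DSS+DCA. The Irf1 groups overlapped, and its log2 change of -0.39 ± 0.25 (SE, adjusted p = 0.464, limma) turned to 0.047 after quantile normalization and 0.052 after the protein-coding rescaling. Irf9 overlaps Rnf31 on the same strand, so reads of the shared part may not be told apart. Of the 50-base stretches in Irf9 transcripts, 1.7% occur in other genes, among them Rnf31.

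Parp9 and Dtx3l encode partners in a complex that links ADP-ribose to ubiquitin, and their genes overlap on opposite strands of chromosome 16. Parp9 measured 31.5, 29.0 and 28.4 FPKM in DSS and 25.5, 13.9 and 16.3 in DSS+DCA. Dtx3l measured 12.3, 12.5 and 12.7 FPKM in DSS and 11.1, 5.00 and 5.52 in DSS+DCA. The nearby Parp14, an ADP-ribosyltransferase, measured 29.8, 23.7 and 26.3 FPKM in DSS and 18.6, 14.5 and 12.6 in DSS+DCA. All 3 separated the groups by a modest margin, with log2 changes from -0.79 to -0.69 and adjusted p from 0.157 to 0.249 (limma). The share of all tested genes wholly lower with DCA was 17.8%. Because the library kit marked strand but its use in counting is not stated, reads where Parp9 and Dtx3l overlap may have been shared.

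None of the 4 membrane restriction factors separated the groups. Bst2, or tetherin, which holds budding virions on the cell surface, measured 164, 262 and 212 FPKM in DSS and 174, 32.5 and 39.6 in DSS+DCA (log2 change -1.76 ± 0.61 SE, adjusted p = 0.239, limma). DSS+DCA replicate 1 was within the DSS range and replicates 2 and 4 far below it. The IFITM proteins block fusion of viruses with endosomes. Ifitm3 measured 105, 328 and 222 FPKM in DSS and 136, 61.5 and 105 in DSS+DCA (adjusted p = 0.327, limma). Ifitm2 measured 51.9, 96.2 and 76.9 FPKM in DSS and 97.3, 66.1 and 84.1 in DSS+DCA. Ifitm1 measured 5.01, 4.52 and 3.17 FPKM in DSS and 3.35, 8.75 and 6.85 in DSS+DCA. The Ifitm2 and Ifitm1 means were thus higher with DCA (adjusted p = 0.801 and 0.536, limma), although Ifitm2 was at -0.077 on the log2 scale without DSS replicate 1 and Ifitm1 at -0.25 with DSS+DCA replicate 1 as the only library of its group. Of the 50-base stretches in Ifitm2 transcripts, 48.5% occur in other genes, among them the predicted gene Gm45717, so its level is uncertain.

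The IFI27 family lies in 1 cluster on chromosome 12, and its members encode small hydrophobic proteins. Ifi27 measured 22.5, 31.3 and 24.9 FPKM in DSS and 39.97, 22.7 and 45.8 in DSS+DCA (log2 change 0.40 ± 0.29 SE, adjusted p = 0.515, limma). Ifi27l2b, the second most abundant member after Isg15, measured 636, 764 and 694 FPKM in DSS and 351, 174 and 195 in DSS+DCA (log2 change -1.60 ± 0.30 SE, adjusted p = 0.0865, limma). Between them lies Ifi27l2a, which measured 85.7, 544 and 282 FPKM in DSS and 358, 155 and 67.1 in DSS+DCA. Ifi27l2b separated the groups at 2.91-fold lower, Ifi27 had a higher mean with DCA, and Ifi27l2a spread 6.34-fold within DSS alone. The transcripts of Ifi27l2a and Ifi27l2b share under 1% of their 50-base stretches (0.483% and 0.211%), and Ifi27 shares 0 with another gene.

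Of the remaining members, Ifi44, a cytoplasmic protein induced by interferon, measured 20.98, 25.1 and 20.3 FPKM in DSS and 13.1, 5.09 and 5.03 in DSS+DCA (adjusted p = 0.123, limma). Ifi35, a leucine zipper protein, measured 79.0, 98.2 and 85.5 FPKM in DSS and 57.3, 29.4 and 36.0 in DSS+DCA (adjusted p = 0.135, limma). Both were over 2-fold lower in mean FPKM, 2.86-fold and 2.14-fold, without overlap. Epsti1, named for its induction in epithelium by stroma, measured 36.5, 41.9 and 38.3 FPKM in DSS and 31.6, 15.3 and 14.5 in DSS+DCA. Xaf1, a pro-apoptotic binding partner of XIAP, measured 14.8, 18.3 and 16.6 FPKM in DSS and 13.2, 6.71 and 8.36 in DSS+DCA. Both separated the groups, with DSS+DCA replicate 1 near the DSS values. Lgals3bp, a secreted glycoprotein that binds galectins, measured 36.2, 43.6 and 39.5 FPKM in DSS and 56.9, 16.4 and 16.8 in DSS+DCA. Its replicate 1 of DSS+DCA was above every DSS library, while replicates 2 and 4 were less than the lowest of them (adjusted p = 0.516, limma).

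**Figure D3:**
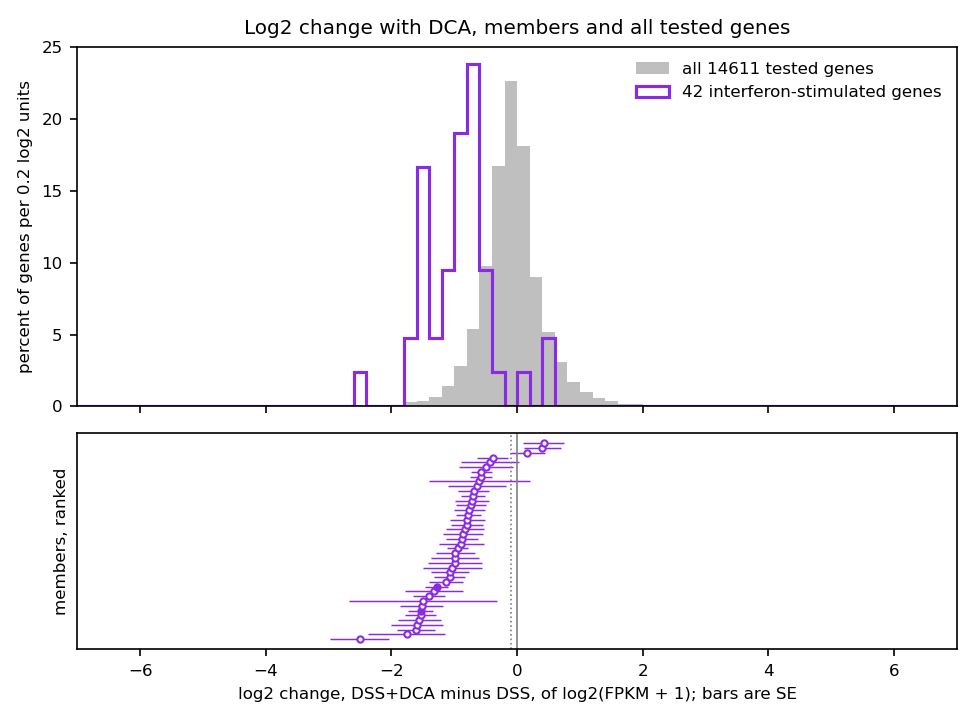
The upper panel gives the percent of genes per bin of log2 change (DSS+DCA minus DSS, on log2(FPKM + 1)) for 14611 tested genes and the 42 members, and the lower panel each member with its SE, filled where the adjusted p was under 0.05. The members centre at -0.88 and all tested genes at -0.09 (dotted line), with 2 filled members, Mx1 and Isg20.

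In the authors' deposited table, 11 members were marked significant, all lower: Dhx58, Ifi27l2b, Ifi35, Ifi44, Ifit1, Isg15, Isg20, Mx1, Mx2, Rtp4 and Usp18. Of all 36977 genes in that table, 0.99% had the mark with lower values. This share includes genes under the 0.5 FPKM filter, so its base differs from the 14611 tested genes used elsewhere. Every gene so marked in the authors' deposited table had an absolute log2 fold of at least 1.00 and a q-value of at most 0.0499. The q-values of the authors' deposited table for Mx1, Isg15 and Isg20 were 2.05e-07, 1.23e-06 and 0.000723.

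The members were not equally low in the 3 DSS+DCA libraries. Relative to the DSS mean, the median member lay at -0.44 log2 units in DSS+DCA replicate 1, at -1.22 in replicate 2 and at -1.05 in replicate 4. In replicate 1, 31 members (73.8%) lay below all DSS libraries, as did 26.3% of all tested genes. In replicates 2 and 4 there were 36 and 37 such members (85.7% and 88.1%), and 53.6% and 53.4% of all tested genes. Zbp1, Ifitm2, Ifi27 and Lgals3bp lay above the DSS range in replicate 1. Isg20 was the 1 member of the 30 separated ones with its lowest value in replicate 1, which at 3.60 FPKM was almost equal to replicate 2. With replicate 1 as the only DSS+DCA library, assumed to vary like the DSS libraries, limma called Ifit1 and Isg15 among the members and 1.41% of tested genes, and the members' median was -0.43, or -0.55 relative to all genes. Without replicate 1, 26 members passed, all lower, against 8.2% of tested genes lower, and the median was -1.15.

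Replicates 2 and 4 of DSS+DCA, high in mitochondrial transcripts, were also lowest in the mean of the epithelial markers. The 12 epithelial markers had a mean log2 level of 8.88 to 9.07 in DSS, 8.69 in DSS+DCA replicate 1, and 7.91 and 8.08 in replicates 2 and 4, with 11 of 12 lower with DCA, none past the test and a median change of -0.82. The mean of the 42 members on the same scale was 4.92 to 5.13 in DSS, 4.57 in DSS+DCA replicate 1, and 3.79 and 3.97 in replicates 2 and 4. The part of the epithelial and mitochondrial levels in the members' values was not tested. When every level was set against the epithelial markers, the members' median was -0.12 and that of all genes 0.67, so their distance from the median of all genes stayed at -0.79, as that setting subtracts 1 value per library. There Isg15, Mx1, Mx2, Usp18, Dhx58, Ifi44 and Ifi27l2b passed with lower values and Ifi27 and Ifitm2 with higher ones. In that setting 47.1% of all tested genes passed, 98 lower and 6782 higher. After the rescaling to protein-coding genes outside the mitochondrial genome the median of all genes moved to 0.23 and that of the members to -0.46, or -0.69 relative to all genes.

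**Figure D4:**
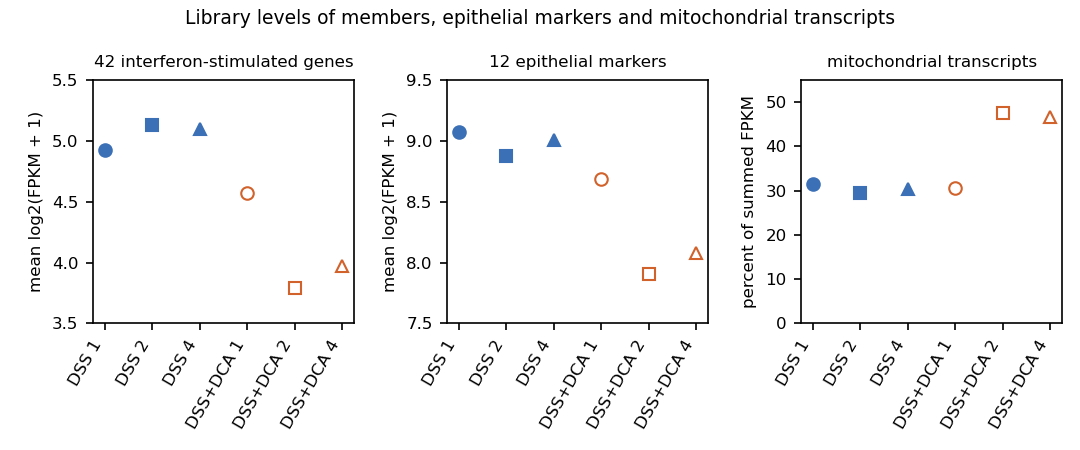
Each symbol is 1 library. The left and middle panels give the mean log2(FPKM + 1) of the 42 members and of 12 epithelial markers on axes of equal span, and the right panel the mitochondrial percent of summed FPKM. Replicates 2 and 4 of DSS+DCA are lowest in the first and middle panels and highest in the right one (47.6% and 46.7%).

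Markers of other cell types were also read. Smooth muscle markers summed to 30.8 to 635 FPKM in DSS and 81.7 to 1404 in DSS+DCA, with DSS replicate 1 lowest and DSS+DCA replicate 1 highest, and all 6 were higher with DCA, none past the test. Within DSS, 17 members, among them Ifitm3, Ifi27l2a, Bst2 and Ifitm2, were lowest in replicate 1 and highest in replicate 2. In 30 members DSS replicate 4 lay between DSS replicates 1 and 2. The rest of these ran the opposite way, among them Stat2, Irf9, Mx1 and Samd9l. The smooth muscle sum was lowest in replicate 1 and highest in replicate 2 (30.8 and 635 FPKM). Its part in the members' values was not tested. B cell markers summed to 1.69 to 2.71 FPKM in DSS and in DSS+DCA to 31.9 in replicate 1, 1.64 in replicate 2 and 28.1 in replicate 4. Macrophage markers summed to 24.7 to 38.1 FPKM in DSS and 31.6 to 48.3 in DSS+DCA, and T cell markers to 5.26 to 5.60 and 6.32 to 9.47. The plasmacytoid dendritic cell marker Siglech, of the cells that make most type I interferon, was at or under 0.0979 FPKM in every library and listed at 0 in DSS replicate 1. That list summed to 457 to 540.1 FPKM in DSS and 84.0 to 256 in DSS+DCA, nearly all of it Klk1, a kallikrein. Neutrophil markers summed to at most 13.2 FPKM in any library, with Cxcr2, Ngp and Retnlg listed at 0 in some. Fibroblast markers summed to 14.4 to 23.5 and 9.76 to 23.5 FPKM, endothelial markers to 7.99 to 8.35 and 2.88 to 10.5, neuron and glia markers to 1.04 to 9.55 and 3.30 to 47.1, and erythroid markers to 4.03 to 9.08 and 16.4 to 28.3. Of all these markers Dcn, a matrix proteoglycan of fibroblasts, and Hbb-bt, a globin, passed the test, both higher (adjusted p = 0.0486 and 0.0347, limma).

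The upstream pathway was examined with a list of 21 receptors, kinases, adaptors and regulators of interferon signalling. None passed the test, 17 had a lower and 4 a higher fitted value, and the median change was -0.33. Irf3, the factor that starts interferon transcription, measured 18.6 ± 0.467 and 12.7 ± 0.530 FPKM (SD, n = 3 in each group, adjusted p = 0.182, limma). The receptor chain Il10rb, which serves type III interferon, measured 22.8 ± 0.501 and 13.4 ± 3.86 FPKM, its partner Ifnlr1 8.11 ± 1.97 and 5.02 ± 0.507 FPKM, and the type II receptor chain Ifngr1 18.0 ± 4.23 and 10.2 ± 2.79 FPKM (adjusted p = 0.197, 0.259 and 0.222, limma). These 4 had the smallest p of the list and each separated the groups. Of the 7 oligoadenylate synthetase genes, whose products make a second messenger on sensing double-stranded RNA, 6 had a lower fitted value, and Oas2 alone passed the test and fell 4.10-fold (adjusted p = 0.0347, limma). Oas1g and Oas1b measured 106 ± 8.55 and 24.1 ± 1.36 FPKM in DSS and 44.9 ± 11.1 and 11.1 ± 2.37 in DSS+DCA (SD, n = 3 in each group, adjusted p = 0.0778 and 0.0861, limma). Oas1a measured 175 ± 15.2 FPKM in DSS and 80.01 ± 30.4 in DSS+DCA (SD, n = 3 in each group, adjusted p = 0.135, limma).

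The DSS values of most members lay close together. The highest DSS value was less than 1.2 times the lowest in 17 members and at least 2 times it in 4, Ddx58, Ifit2, Ifitm3 and Ifi27l2a, and the median ratio was 1.23, against 1.31 for all tested genes with values above 0. In DSS+DCA the median ratio was 2.13, against 1.81 for all such genes. DSS replicate 4 was close to the mean of DSS replicates 1 and 2, by less than 0.1 log2 units in 34 members (median 0.053), while those 2 replicates differed by a median of 0.28. It lay between them in 30 members. The matching shares of all tested genes were not computed for these 2 counts. Where a library lies near the mean of the other 2, the DSS spread that enters the p-value is made narrower. The size of this effect was not tested.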

How the data were processed

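Bulk RNA-seq was made from colonic tissue in 6 libraries. Per the labels' protocols, RNA was extracted with Trizol, selected with oligo(dT), and made into strand-marked paired-end libraries. Among the tools in the submitters' processing notes, whose roles are not stated, are DESeq2, edgeR, StringTie 2.1.6, HISAT2 2.2.1 and cutadapt 1.9. Per the file headers, the table the authors deposited holds FPKM for each gene in each library, and a scaling between libraries is not stated. The authors' fold, with DSS as the denominator of the ratio, and its log2, with their p-values and q-values, stand in the same deposited table and were used only where the authors' table is named.

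The FPKM were not turned into counts. In genes with 1 transcript, only 32.8% to 36.7% of low values lay within 0.05 of a whole multiple of the best-fitting step (10% by chance), so the depth behind each value is unknown and no counting interval is given. Values were transformed to log2(FPKM + 1), genes averaging 0.5 FPKM or more were kept, and limma 3.58.1 in R 4.3.3 was run (lmFit and trended eBayes, a two-sided test with no covariates). The fit was tested on simulated data. Log2 changes on that scale are too small for low genes, folds are ratios of mean FPKM, and errors are SD of 3 libraries or SE of the log2 change. The protein-coding rescaling gave every library the same summed FPKM of nuclear protein-coding genes. TMM-style scaling used a trimmed mean of log ratios over the tested genes. Alternatives also included another pseudocount and filter, quantile normalization, array weights, a replicate block, another threshold and leaving out libraries. Using DSS+DCA replicate 1 alone and setting levels against the epithelial markers were chosen after seeing the data.

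The members, the marker and pathway lists and the tests were chosen with earlier results of these data known. Values in every library are given for all 42 members. Of each pathway list the 4 genes of smallest p among those reported are named, and some genes of these lists are not reported here. Overlaps between genes and shared 50-base stretches were taken from GENCODE M21, and promoters from RefSeq, GRCm38.p6. Python 3.11.15 was used for tables and figures.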

Additional observations from a re-analysis of the deposited data

How the results depend on the processing

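The 2 member calls did not hold over all alternatives, while the median change of the members stayed below 0 in those run. The number of members called was 0 with no filter and with the replicate block (0.00541% and 0.00684% of tested genes called). It was 4 with TMM-style scaling (0.903%) and 7 at an adjusted p under 0.1 (1.57%). With array weights it was 39, 37 lower and 2 higher (Ifi27 and Ifitm1), where 42.6% of tested genes were called. It was 9 relative to the epithelial markers, where 6880 genes were called. The range was 0 to 26 when single libraries were left out. The number of genes called over the table, 82, went to 2 with no filter, 132 with TMM-style scaling, 124 with the protein-coding rescaling (45 lower and 79 higher, against 63 and 19), 1 with the replicate block, 6227 with array weights, 230 at an adjusted p under 0.1, 206 with DSS+DCA replicate 1 as the only library of its group and 6880 relative to the epithelial markers, with a range of 0 to 1321 when single libraries were left out. Where 0 genes were called, without DSS replicates 1 and 4, limma gave 1498 and 1407 at an unadjusted p under 0.05, and 24 and 21 members. The members without overlap numbered 24 (protein-coding rescaling, 5.39% of tested genes) to 35 (without DSS+DCA replicate 1, 39.8%), except 10 relative to the epithelial markers (1.17%). Their median change moved from -0.88 to -0.46 with the protein-coding rescaling, -0.43 with DSS+DCA replicate 1 alone and -0.12 relative to the epithelial markers, with a range of -1.15 to -0.73 when single libraries were left out. The cause of these moves was not tested.

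Over tested genes, the deviations of same-numbered libraries from their group means correlated at r = -0.144, -0.170 and 0.0153. With 3 libraries per group, these values cannot decide whether the numbers mark pairs. Under the replicate block 0 members and 1 gene were called. The deviations of any DSS+DCA library correlated at most at 0.209 with those of a DSS library. Irf1 turned to 0.047 with quantile normalization and 0.052 with the protein-coding rescaling. Leaving out DSS replicate 1 turned Ifitm2 to -0.077 (range -0.077 to 0.36 over single libraries left out), and leaving out DSS+DCA replicate 4 turned Zbp1 to 0.027 (range -0.77 to 0.027). With DSS+DCA replicate 1 alone, Ifitm1 was at -0.25, Lgals3bp at 0.51, Ifi27l2a at 0.60 and Zbp1 at 0.051. Relative to the epithelial markers, Sp100 was at 0.026, Eif2ak2 at 0.060, Parp9 at 0.070, Trim25 at 0.037, Irf9 at 0.19, Uba7 at 0.18, Ddx58 at 0.33, Irf1 at 0.37, Lgals3bp at 0.12, Ifi27l2a at 0.16 and Zbp1 at 0.26. None of these reversed members passed the test in the setting that reversed it (adjusted p at least 0.113, limma).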
